A study of Mus musculus with 6 samples.

Results

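Long intergenic noncoding RNA (lincRNA) genes with measurable expression in muscle were examined in a mouse model labelled as lacking insulin-like growth factor 2 (Igf2) in muscle. The set held every gene that the deposited table lists with the biotype lincRNA and whose mean over the 6 libraries was at least 0.5 FPKM (fragments scaled by gene length and library size), less genes that the rule leaves out by name. Of the 9 names it gives, H19, Meg3 and E230001N04Rik were among the 260 lincRNA genes at that level and were removed. Apart from these names, the genes were selected on biotype and on mean deposited level over both groups. That mean is not the contrast between the groups. E230001N04Rik, however, was left out with its difference between the groups already known. The set came to 257 genes of the 54532 in the table, and of the 5559 listed as lincRNA, of which 3732 had 0 counts in all 6 libraries. Bulk RNA was sequenced from muscle of 3 Igf2 cKO and 3 control mice, 1 library each. Igf2 cKO mice were Mck-Cre+; Igf2f/f, with Cre driven by the promoter of muscle creatine kinase, which works in striated muscle fibres, so that other cells of the tissue are not targeted. Control mice were Mck-Cre-; Igf2f/f littermates, so that both groups carried loxP sites around exon 2 on both Igf2 alleles, on a C57BL/6 background. The muscle, the age and the sex are not stated in the labels.

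A lincRNA is a long transcript that lies between protein coding genes and has no long reading frame. Such RNAs are usually less abundant than messenger RNAs and are retained in the nucleus more often, where some build nuclear bodies, while others act in the cytosol on microRNAs or RNA-binding proteins. Others serve as precursors, with a microRNA or a small nucleolar RNA (snoRNA) cut out of the transcript, and a few loci with this label encode small proteins. In skeletal muscle, lincRNAs have been tied to myoblast differentiation and to the choice between fast and slow myosin genes.

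Of the 257 genes, 9 held mature microRNAs on their own strand, 28 in all with 26 different seeds (bases 2 to 8, which pair with target RNAs). The microRNAs themselves were not measured here, since the counts are of the long precursor genes. The sequences below are from RefSeq (GRCm38.p6), with the seed in capitals. They are shown for the lincRNA gene with the smallest p between the genotypes (miR-101a), for a pair of microRNAs enriched in muscle (miR-206 and miR-133b), for the members of one cluster that share seeds with each other, and for a microRNA of blood cells (miR-142a).
miR-101a-3p: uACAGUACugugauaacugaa
miR-206-3p: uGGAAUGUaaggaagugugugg
miR-133b-3p: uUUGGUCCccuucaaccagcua
miR-17-5p: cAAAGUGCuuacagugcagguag
miR-20a-5p: uAAAGUGCuuauagugcagguag
miR-19a-3p: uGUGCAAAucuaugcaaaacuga
miR-19b-3p: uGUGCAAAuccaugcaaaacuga
miR-142a-3p: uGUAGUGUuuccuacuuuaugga
In GRCm38, miR-101a-3p lies at chr4:101346957-101346977 on the minus strand, within an exon of E130102H24Rik. Gm28653 holds miR-206-3p at chr1:20679055-20679076 and miR-133b-3p at chr1:20682834-20682855, both on the plus strand and within its exons. Mir17hg, on the plus strand of chromosome 14, holds the 4 sequences with shared seeds in its exons, and miR-17-5p and miR-20a-5p have one seed while miR-19a-3p and miR-19b-3p have another. Mir142hg holds miR-142a-3p at chr11:87756903-87756925 on the plus strand, in an intron.

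Total counts were 17503334, 16184371 and 16889674 in Igf2 cKO replicates 1 to 3, and 17905203, 17820729 and 16335647 in control replicates 1 to 3. The targeted gene, Igf2, had 1.84, 2.29 and 2.48 CPM (counts scaled to a common library size) in Igf2 cKO muscle and 3.24, 2.40 and 2.55 CPM in control muscle, with a log2 fold change of -0.31 ± 0.25 (SE) and an adjusted p of 0.751 (edgeR). The groups overlapped for Igf2, so the gene-level counts do not separate the genotypes, and counts over exon 2 alone were not analysed here. The summed CPM of 8 muscle fibre markers was between 88018 and 105633 in Igf2 cKO libraries and between 109614 and 133713 in control libraries. Every Igf2 cKO sum thus lay below every control sum, and its part in the levels of the lincRNA genes was not tested. In edgeR 0 of the 8 were called (background 0.249% of all genes tested) or at an unadjusted p under 0.05 (background 9.93%). DESeq2 (background 1.38%) and limma-voom (background 0.229%) called 0 of them. No library held more than 3 counts of Xist, and the other markers of the sex list, all Y-linked, were present in all 6 libraries. The control mice are littermates, as stated above. Nothing else in the labels says more of how the samples of a group are independent than that they are mice. The p-values thus measure the spread between these samples.

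The set was dominated by a few abundant RNAs. Median mean expression was 1.28 FPKM, with quartiles of 0.719 and 2.87 FPKM, against a median of 5.11 FPKM over the 11866 protein coding genes at or above the same threshold. A mean of at least 1 FPKM was reached by 157 genes and one of at least 10 FPKM by 20 genes, and the 12 most abundant held 49.5% of the summed FPKM. At the threshold, Hotair (0.505 FPKM) and 4933404O12Rik (0.501 FPKM) were just inside it, and CT030636.2 (0.494 FPKM) and Gm26885 (0.493 FPKM) just outside. Per length, 1700020I14Rik (84.6 ± 8.72 FPKM, SD over 6 libraries), Prr33 (71.2 ± 8.23 FPKM), Gm12319 (71.1 ± 10.9 FPKM) and 2310040G24Rik (68.5 ± 5.61 FPKM) came first. They were followed by 2900097C17Rik (47.8 ± 3.04 FPKM), Gm10076 (40.5 ± 16.4 FPKM), Malat1 (37.8 ± 10.3 FPKM) and Neat1 (34.6 ± 3.65 FPKM). In this order, the steps from 1700020I14Rik to Prr33 and from 2310040G24Rik to 2900097C17Rik were wider than the SD of either gene, and the step from 2900097C17Rik to Gm10076 was wider than the SD of 2900097C17Rik but not that of Gm10076. The other neighbours differed by less than the SD of either gene.

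**Figure D1:**
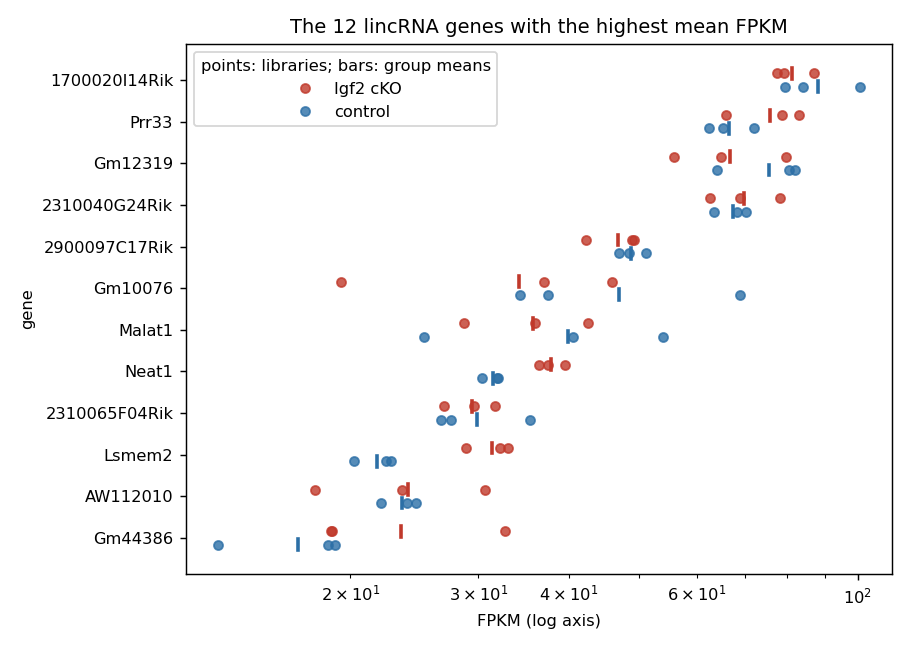
Expression in FPKM (log axis) of the 12 lincRNA genes with the highest mean over 6 libraries, Igf2 cKO libraries in red above control libraries in blue for each gene, with short bars at the group means. The groups do not overlap for Neat1 and Lsmem2 (background 15.5% of all genes tested, in CPM), and Gm10076 and Malat1 spread most within a group.

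The lincRNA label was checked against RefSeq, which matched 165 of the 257 genes by name. RefSeq lists 151 of them as long noncoding RNA, 11 as protein coding, 2 as transcribed pseudogenes and 1, Gm10076, as a pseudogene. Lsmem2, a membrane protein gene, and 1810058I24Rik, whose RNA encodes a small mitochondrial protein, are the most abundant of the 11. For 1810058I24Rik the level was 40.4, 43.1 and 42.0 CPM in Igf2 cKO muscle and 41.0, 39.2 and 37.8 CPM in control muscle. The groups overlapped, with a log2 fold change of 0.09 ± 0.09 (SE) and an adjusted p of 0.803. All 11 were tested, and none passed an adjusted p of 0.05 in edgeR (background 0.249% of all genes tested), DESeq2 or limma-voom, while 1 of them, Lsmem2, was at an unadjusted p under 0.05 in edgeR (background 9.93%).

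No lincRNA gene of the set was called between Igf2 cKO and control muscle. This holds without E230001N04Rik, which was left out by name with its call known. That lincRNA gene was called by edgeR (log2 fold change 2.26 ± 0.30, adjusted p 0.0274) and is counted in the background. Of the 257 genes, 219 had enough counts to be tested (a mean of 7.83 to 12378 counts per library, median 41.3). The remaining 38 were not tested, with means of 1.67 to 11.2 counts. At an adjusted p under 0.05 in edgeR's quasi-likelihood test, 0 of the 219 genes passed, against 0.249% of all 14867 genes tested (37 genes, with 0.182% higher and 0.0673% lower). DESeq2 (background 1.38%) and limma-voom (background 0.229%) called 0 of them as well, and the lowest adjusted p in edgeR was 0.162. At an unadjusted p under 0.05, edgeR had 18 of the lincRNA genes, 8.22% of those tested, against 9.93% of all genes, and limma-voom had 18 (background 9.84%). DESeq2, fitted without the low-count filter, had 14 of all 257 (background 5.16% of 26316 genes). The 18 of edgeR were divided into 8 higher in Igf2 cKO muscle (background 5.11%) and 10 lower (background 4.82%).

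The differences were small and lay on both sides of 0. Log2 fold changes ran from -1.09 to 1.35, with a median of -0.04 over the tested lincRNA genes and 0.00 over all genes tested. In Igf2 cKO muscle 102 genes had a higher fitted level and 117 a lower one, so that 46.6% were above 0, against 50.8% of all genes. Igf2 cKO and control libraries did not overlap for 37 tested lincRNA genes (16.9%), 17 with all Igf2 cKO libraries above (background 7.83%) and 20 with all of them below (background 7.67%), against 15.5% of all genes in both directions. Each of these shares lay close to its background. The rule stated for the series takes genes that change more than 2-fold at an unadjusted p under 0.05, and 4 genes met it (1.83%), against 1.58% of all genes. Gm14319 and Gm17501 were higher (background 0.787%), and E130102H24Rik and Gm49024 were lower (background 0.794%). The precision limits what could be seen, since the median SE of a log2 fold change was 0.31 over the lincRNA genes and 0.16 over all genes. The 95% interval stayed within a 2-fold change for 106 of the 219 genes (48.4%), and for the other genes the interval takes in a 2-fold difference.

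**Figure D2:**
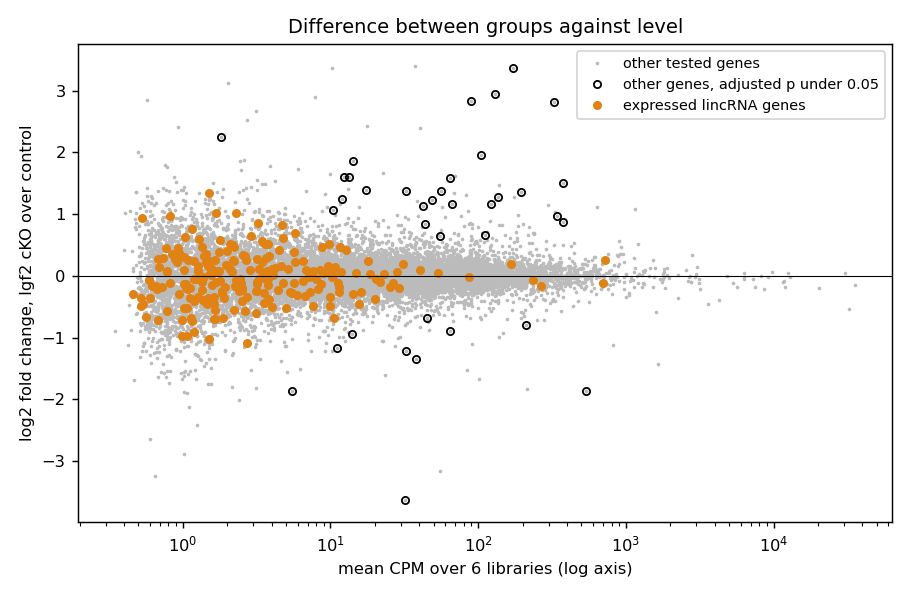
Log2 fold change of Igf2 cKO over control against the mean CPM over 6 libraries (log axis), 1 point per gene, with the tested lincRNA genes in orange, other genes in grey, and other genes at an adjusted p under 0.05 circled. The lincRNA genes of the set lie between -1.09 and 1.35, and none is among the 37 genes called, which include E230001N04Rik, left out by name.

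As a share of all counts, the 257 genes took 0.347%, 0.320% and 0.326% in Igf2 cKO replicates 1 to 3, against 0.328%, 0.308% and 0.326% in control replicates 1 to 3. The exact Clopper-Pearson 95% interval, which covers counting error only, was 0.344% to 0.349% for Igf2 cKO replicate 1 and 0.325% to 0.330% for control replicate 1. Group means were 0.331% ± 0.0141 in Igf2 cKO and 0.320% ± 0.0111 in control muscle (SD, n = 3 each), and the groups overlapped. Neat1, 1700020I14Rik, Malat1, 2900097C17Rik and Prr33 held 64.4% of these counts. Without Neat1 the order of the means turned, with 0.251% in Igf2 cKO and 0.255% in control muscle.

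Among the RNAs of nuclear bodies, Neat1 was the most abundant lincRNA gene by counts and the one whose groups stood apart. Neat1 is the scaffold of paraspeckles, bodies that hold back edited RNAs and RNA-binding proteins (chr19:5824708-5845478, minus strand). It had 827, 760 and 775 CPM in Igf2 cKO muscle and 667, 667 and 635 CPM in control muscle. All Igf2 cKO libraries lay above all control libraries, as for 7.83% of all genes tested. Neat1 differed by 0.26 ± 0.11 on the log2 scale (SE; 95% interval 0.00 to 0.52), and with an adjusted p of 0.501 in edgeR's quasi-likelihood test it did not pass. Malat1, which collects in nuclear speckles beside splicing factors, lies next to it on the same chromosome. Its level was 299, 252 and 200 CPM in Igf2 cKO muscle and 285, 177 and 378 CPM in control muscle. The groups overlapped throughout, and the log2 fold change was -0.16 ± 0.26 (SE).

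Genes for proteins of these bodies and of RNA decay and snoRNA assembly were taken as lists. In each list 0 genes were called by edgeR (background 0.249%), DESeq2 (background 1.38%) or limma-voom (background 0.229%). Of 15 paraspeckle proteins, 2 were higher (background 5.11%) and 2 lower (background 4.82%) at an unadjusted p under 0.05 in edgeR, with a median log2 fold change of -0.04. The 2 higher ones, Sfpq (0.24 ± 0.09, adjusted p 0.45) and Tardbp (0.26 ± 0.09, adjusted p 0.39), encode RNA-binding proteins, and the 2 lower ones were Rbmx (-0.28 ± 0.12, adjusted p 0.489) and Zc3h6 (-0.62 ± 0.16, adjusted p 0.251). Of 10 nuclear speckle proteins, the splicing factor gene Srsf3 (0.37 ± 0.11, adjusted p 0.32) was the 1 at an unadjusted p under 0.05 (background 9.93%). The list's median was 0.05. None of the 11 nonsense-mediated decay factors (median -0.03) and none of the 8 snoRNP proteins (median 0.03) was at an unadjusted p under 0.05 (background 9.93%). Nonsense-mediated decay degrades many spliced RNAs with no long reading frame, snoRNA hosts among them.

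The abundant cytosolic regulators had overlapping groups and narrow intervals. 1700020I14Rik is named Oip5os1 in RefSeq and is known as Cyrano, an RNA that pairs with miR-7 and directs its decay. Its level was 648, 659 and 721 CPM in Igf2 cKO muscle and 702, 663 and 841 CPM in control muscle, and the groups overlapped. On the log2 scale the difference was -0.12 ± 0.14 (SE; 95% interval -0.43 to 0.19; adjusted p 0.838). 2900097C17Rik is Norad, which binds Pumilio proteins and helps to keep chromosome number stable. Norad had 243, 208 and 240 CPM in Igf2 cKO muscle and 240, 232 and 252 CPM in control muscle, and again the groups overlapped. Its log2 fold change of -0.07 ± 0.11 had a 95% interval of -0.31 to 0.18, with an adjusted p of 0.900.

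Of the lincRNA genes with known roles in muscle, heart or body patterning, none passed the test, and the groups overlapped for all but Bvht. 2310065F04Rik, known in mice as linc-Myh, lies in the fast myosin cluster, 10170 bp from Myh3 (chr11:67112461-67120080, minus strand), and favours fast over slow fibre genes. It had 87.1, 78.9 and 92.2 CPM in Igf2 cKO muscle and 80.7, 104 and 78.2 CPM in control muscle. The groups overlapped, with a log2 fold change of -0.03 ± 0.13 (SE; 95% interval -0.32 to 0.27). Bvht (Braveheart), required in mice for cardiac commitment of mesoderm cells, had 10.03, 10.07 and 10.16 CPM in Igf2 cKO muscle and 9.68, 8.94 and 9.67 CPM in control muscle. All Igf2 cKO values were above the control values (background 7.83% of all genes tested), by a log2 fold change of 0.10 ± 0.12 (adjusted p 0.863 in edgeR). Dubr, which promotes myoblast differentiation in mice, had a log2 fold change of 0.11 ± 0.17 (SE), and Hotair, transcribed from the Hoxc cluster, one of -0.14 ± 0.47 with overlapping groups. Prr33 (chr7:142491074-142506771, minus strand) overlaps the span of Tnnt3, which encodes fast troponin T, and lies 68758 bp from H19 and 143995 bp from Igf2. Tnnt3 lies on the opposite strand and is far more abundant, and since the strand setting is unknown, the counts of Prr33, and so its rank by FPKM, can hold reads of Tnnt3. The listed level was 197, 155 and 184 CPM in Igf2 cKO muscle and 147, 154 and 170 CPM in control muscle. The groups overlapped, and edgeR's log2 difference was 0.19 ± 0.12 (SE), at an adjusted p of 0.673.

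Genes that carry snoRNAs in their introns were represented by 6 lincRNA genes. Their fitted differences ran from -0.36 ± 0.57 for Snhg10 to 0.51 ± 0.25 for Epb41l4aos on the log2 scale, and none passed an adjusted p or an unadjusted p of 0.05. Epb41l4aos had 3.96, 3.89 and 4.78 CPM in Igf2 cKO muscle and 2.16, 3.74 and 2.94 CPM in control muscle (adjusted p 0.554 in edgeR). Snhg12 had 5.13, 5.50 and 4.66 CPM in Igf2 cKO muscle and 4.32, 4.08 and 3.00 CPM in control muscle (log2 fold change 0.42 ± 0.21, adjusted p 0.563 in edgeR). Snhg20 had 6.52, 7.48 and 7.09 CPM in Igf2 cKO muscle and 5.68, 6.03 and 6.07 CPM in control muscle (log2 fold change 0.25 ± 0.15, adjusted p 0.657 in edgeR). For each of these 3 genes all Igf2 cKO libraries lay above all control libraries (background 7.83% of all genes tested), whereas for Snhg6 (-0.19 ± 0.17), Snhg18 (0.10 ± 0.22) and Snhg10 the groups overlapped. Several other snoRNA hosts, Gas5 and Snhg1 among them, are listed under another biotype and are not in the set.

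Among the microRNA hosts with enough counts to be tested, the largest difference was that of E130102H24Rik, which holds miR-101a in an exon and had the smallest p of all lincRNA genes tested (chr4:101346531-101356735, minus strand). It had 32, 30 and 27 counts in Igf2 cKO libraries and 65, 60 and 66 counts in control libraries, which is 1.78, 1.85 and 1.59 CPM in Igf2 cKO and 3.51, 3.35 and 4.31 CPM in control muscle. All Igf2 cKO libraries were close together and below every control library (background 7.67% of all genes tested with all Igf2 cKO libraries below). Group means were 1.74 ± 0.134 CPM in Igf2 cKO and 3.73 ± 0.513 CPM in control muscle (SD, n = 3 each), and edgeR gave -1.09 ± 0.23 on the log2 scale (SE; 95% interval -1.62 to -0.56), at an adjusted p of 0.162. The nearest protein coding gene, Ak4, an adenylate kinase gene, lies on the other strand across a gap of 62542 bp and had a log2 fold change of -0.13.

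The other microRNA hosts that were tested had smaller fitted differences. Gm28653, with miR-206 and miR-133b, had 3.18, 4.51 and 3.01 CPM in Igf2 cKO muscle and 5.51, 2.63 and 3.72 CPM in control muscle. Its groups overlapped, with a log2 fold change of -0.15 ± 0.31 (SE). Mir17hg, the host of the miR-17 to miR-92a cluster, which promotes cell growth, had 2.23, 1.73 and 1.48 CPM in Igf2 cKO muscle and 1.73, 2.01 and 2.42 CPM in control muscle. The log2 fold change was -0.17 ± 0.29 (SE), and the groups overlapped. For 6720427I07Rik with let-7d (0.01 ± 0.23), Gm27028 with miR-30c-2 (0.24 ± 0.32) and 2900076A07Rik with miR-1839 (0.05 ± 0.13) the groups overlapped as well. The snoRNA hosts Snhg10 and Snhg20 described above also hold microRNAs, miR-3069 in an intron of Snhg10, whose groups overlapped, and miR-6516 in an exon of Snhg20, whose Igf2 cKO libraries were all above control.

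Mir142hg, the host of a microRNA of blood cells, was too low to be tested. It had 2, 0 and 0 counts in Igf2 cKO libraries and 6, 2 and 9 counts in control libraries, and the largest Igf2 cKO value in CPM was just below the smallest control value. The summed CPM of 5 lymphocyte markers was 1.34, 1.48 and 0.827 in Igf2 cKO libraries and 2.70, 3.30 and 3.13 in control libraries. None of the 5 markers was at 0 in all libraries, and 2 of them (Jchain and Trac) had enough counts to be tested. Both were lower at an unadjusted p under 0.05 in edgeR (background 4.82%), at 0 to 14 counts per library. None was called by edgeR, DESeq2 or limma-voom. Of the untested markers, Cd79a and Nkg7 had all Igf2 cKO values below control. Cd3e had 7, 10 and 1 counts in Igf2 cKO and 9, 2 and 3 counts in control libraries, and its groups overlapped. The part of these cells in the Mir142hg counts was not tested, and in bulk tissue fewer cells of a type and less RNA per cell cannot be told apart. The 5 macrophage markers summed to 243, 197 and 168 CPM in Igf2 cKO libraries and 277, 283 and 130 CPM in control libraries, and overlapped.

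Besides E130102H24Rik, 9 genes were named for having the smallest p in each direction, 5 higher and 4 more lower in Igf2 cKO muscle. Lsmem2 encodes a membrane protein per RefSeq (chr9:107593841-107597075, minus strand). It had 12.0, 10.7 and 12.2 CPM in Igf2 cKO muscle and 7.51, 8.44 and 8.29 CPM in control muscle. The groups lay well apart, with means of 11.6 ± 0.802 CPM in Igf2 cKO and 8.08 ± 0.496 CPM in control muscle (SD, n = 3 each). EdgeR put the difference at 0.52 ± 0.13 on the log2 scale (SE; 95% interval 0.22 to 0.82), at an adjusted p of 0.22. Gm14319 (chr2:167858585-167862542, plus strand) had the largest fitted fold change of the set, with 1.39, 2.84 and 2.24 CPM in Igf2 cKO muscle and 1.14, 0.782 and 0.588 CPM in control muscle. The lowest Igf2 cKO value was close to the highest control value, and the log2 fold change of 1.35 ± 0.39 had an adjusted p of 0.284. Gm17501 had 3.06, 3.77 and 2.36 CPM in Igf2 cKO muscle and 1.57, 1.84 and 1.11 CPM in control muscle (1.01 ± 0.30, adjusted p 0.29). Gm17501 starts 331 bp from Cyr61, a gene for a secreted matrix protein on the other strand that had a log2 fold change of -0.18 ± 0.56. Gm32200 (0.86 ± 0.29, adjusted p 0.358) and Gm49477 (0.47 ± 0.16, adjusted p 0.381) completed the higher genes.

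Of the lower genes, Gm49024 had 1.00, 0.803 and 1.18 CPM in Igf2 cKO muscle and 1.68, 2.01 and 2.42 CPM in control muscle (log2 fold change -1.02 ± 0.31, adjusted p 0.308 in edgeR). 5830454E08Rik had 0.724, 0.865 and 0.886 CPM in Igf2 cKO muscle and 1.30, 1.79 and 1.57 CPM in control muscle (-0.91 ± 0.31, adjusted p 0.372 in edgeR). For both, and for all 9 genes, the groups did not overlap (background 15.5%). Choosing genes by the smallest p makes this likely, so it adds no evidence. At these levels a library held as few as 13 counts of Gm49024. 2810414N06Rik starts in the opposite direction 353 bp from Edem3, a gene of glycoprotein quality control, and had 1.45, 1.05 and 1.30 CPM in Igf2 cKO muscle and 2.05, 1.96 and 2.16 CPM in control muscle (-0.69 ± 0.27, adjusted p 0.452 in edgeR). Gm26917 had 18.9, 14.2 and 18.8 CPM in Igf2 cKO muscle and 23.2, 19.7 and 24.6 CPM in control muscle (-0.38 ± 0.14, adjusted p 0.425 in edgeR). The span of Gm26917 on chromosome 17 lies in a copy of the pre-ribosomal RNA sequence, so its counts are uncertain and can hold reads of ribosomal RNA.

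**Figure D3:**
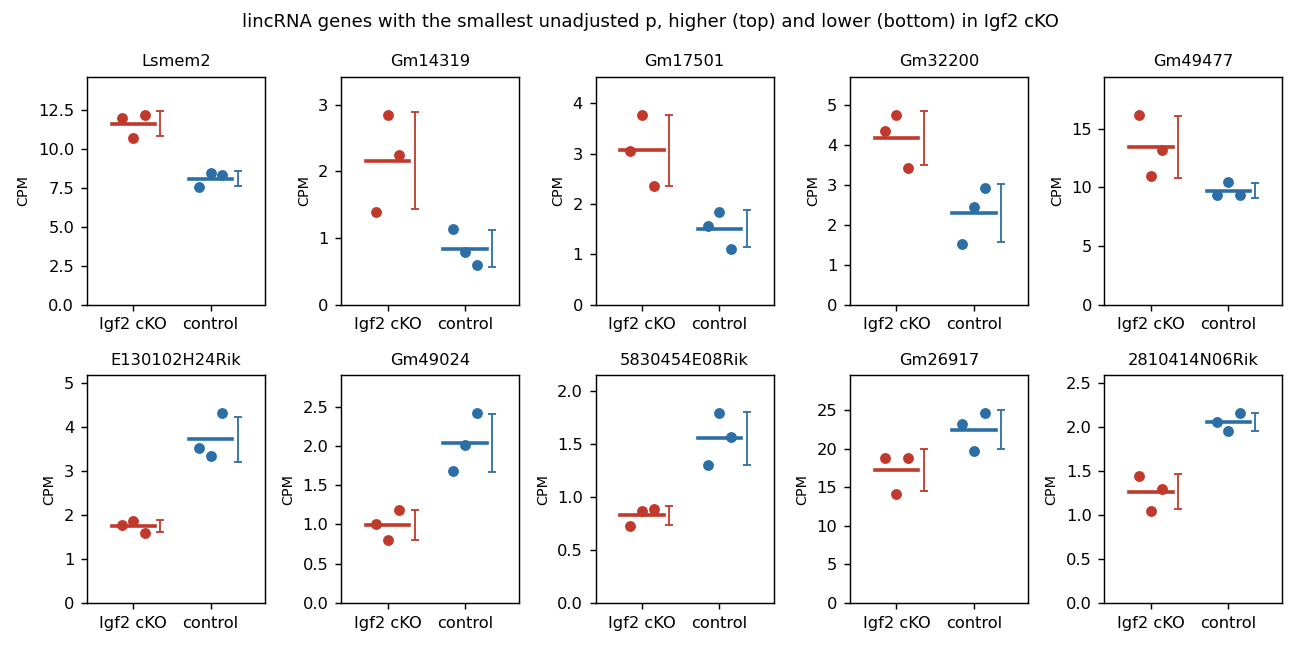
CPM of the 10 lincRNA genes with the smallest unadjusted p, 5 higher (top) and 5 lower (bottom) in Igf2 cKO, with Igf2 cKO libraries in red left of control libraries in blue, horizontal bars at the means and vertical bars for 1 SD (n = 3 each). The groups do not overlap in any panel, which the choice by smallest p makes likely, and the adjusted p of each gene in edgeR is at least 0.162.

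A few lincRNA genes were set apart by 1 Igf2 cKO library. In Igf2 cKO replicate 2, 4 tested lincRNA genes (1.83%) were at least 2-fold above each of the other 5 libraries, against 0.303% of all genes tested. These 4 were named after their values were seen. 2310020H05Rik had 3.45, 10.1 and 4.61 CPM in Igf2 cKO muscle and 3.41, 3.74 and 3.00 CPM in control muscle. 9530020I12Rik had 4.51, 11.4 and 5.55 CPM in Igf2 cKO muscle and 4.32, 4.41 and 4.44 CPM in control muscle. Apart from replicate 2, the Igf2 cKO values of both genes were near those of control muscle. Gm5532 had 2.62, 12.3 and 2.54 CPM in Igf2 cKO muscle and 1.95, 4.25 and 5.16 CPM in control muscle. Gm20735 had 1.23, 4.14 and 1.36 CPM in Igf2 cKO muscle and 0.757, 1.01 and 1.57 CPM in control muscle. Without that library the log2 fold changes were 0.25 for 2310020H05Rik, 0.20 for 9530020I12Rik, 0.23 for Gm20735 and -0.54 for Gm5532, against 0.83, 0.70, 1.02 and 0.62 with it.

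In the same library several myosin genes were at an end of their range. Slow myosin Myh7 had 43.7, 410 and 52.9 CPM in Igf2 cKO muscle and 311, 209 and 220 CPM in control muscle. Myh2, of oxidative fast fibres, had 920, 2917 and 1201 CPM in Igf2 cKO muscle and 1116, 1624 and 1454 CPM in control muscle, and Myh4, of glycolytic fast fibres, had 32951, 17291 and 28640 CPM in Igf2 cKO muscle and 35433, 33116 and 46270 CPM in control muscle. Igf2 cKO replicate 2 was thus highest for Myh7 and Myh2 and lowest for Myh4, by less than 2-fold from the next library in each case, while for Myh7 the other Igf2 cKO libraries lay far below every control library. H19, with 562, 1641 and 693 CPM in Igf2 cKO and 826, 685 and 786 CPM in control muscle, was highest in Igf2 cKO replicate 2 too. Whether fibre makeup had a part in the levels of the 4 lincRNA genes was not tested. Igf2 cKO replicates 1 and 3 and control replicate 3 held 0 lincRNA genes that were 2-fold above the rest (backgrounds 0.0874%, 0.188% and 0.0135%), and control replicates 1 and 2 held 1 each (backgrounds 0.114% and 0.0336%). In Igf2 cKO replicate 1, 5 lincRNA genes (2.28%) were at least 2-fold below all other libraries, against 0.498% of all genes, and Snhg10 was one of them. The corresponding counts were 1 in Igf2 cKO replicate 2 (background 0.484%), 1 in Igf2 cKO replicate 3 (0.552%), 1 in control replicate 1 (0.316%), 2 in control replicate 2 (0.316%) and 0 in control replicate 3 (0.599%). None of these backgrounds was drawn from genes of like counts.

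**Figure D4:**
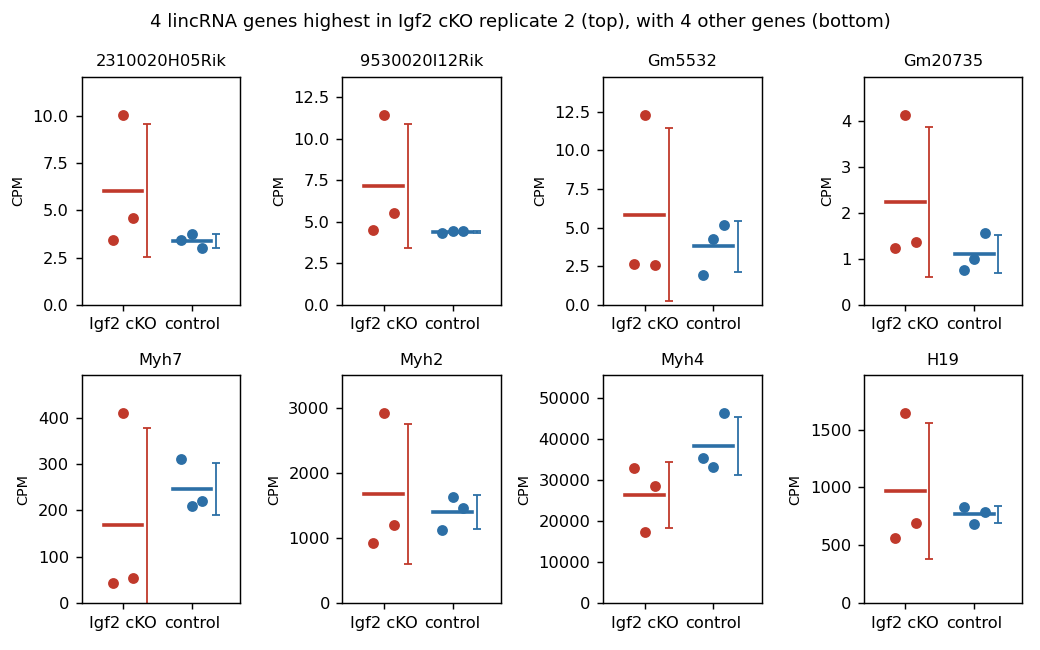
CPM of the 4 lincRNA genes that were at least 2-fold above all other libraries in Igf2 cKO replicate 2 (top) and of Myh7, Myh2, Myh4 and H19 (bottom), with Igf2 cKO libraries in red left of control libraries in blue, horizontal bars at the means and vertical bars for 1 SD (n = 3 each; a bar is clipped at 0). In each panel 1 Igf2 cKO point lies far from the other 2, above them in 7 panels and below them for Myh4.

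Most of the lincRNA genes lay close to a protein coding gene. Measured between listed spans, 138 of the 257 were within 5000 bp of the nearest protein coding gene and 39 overlapped one, with a median gap of 3807 bp. The nearest gene pointed away on the other strand for 74, with 42 pairs of starts within 1000 bp of each other. Of 60 genes that lay downstream of their neighbour on the same strand, 27 were within 5000 bp, where reads past the end of the neighbour can fall. On the opposite strand, 72 lincRNA genes overlapped another listed gene, and whether the counting used strand was not given in the sources used here. Across 184 pairs in which both genes were tested, the log2 fold changes of lincRNA gene and neighbour had a Pearson r of 0.23 and a Spearman rho of 0.19, and 98 pairs had the same sign. In 38 divergent pairs with close starts r was -0.12, with 18 of the same sign, and in 22 pairs downstream on the same strand it was 0.29, with 13 of the same sign. Genes are not independent replicates, all pairs share the 6 libraries, and a few pairs share a neighbour, so these values are a description.

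The lincRNA gene closest to a called gene was A530013C23Rik, 759 bp downstream of Cebpb on the same strand of chromosome 2, and it was named after its values were seen. Cebpb, a transcription factor gene of stress and differentiation, was higher in Igf2 cKO muscle, with 171, 172 and 160 CPM against 75.1, 83.7 and 66.6 CPM in control muscle (log2 fold change 1.16 ± 0.11, adjusted p 0.00717 in edgeR). A530013C23Rik had 4.74, 3.89 and 4.61 CPM in Igf2 cKO muscle and 3.08, 2.96 and 3.27 CPM in control muscle. The groups did not overlap (background 15.5% of all genes tested). Its log2 difference in edgeR was 0.51 ± 0.20 (SE, with a 95% interval of 0.06 to 0.96), at an adjusted p of 0.441. How many of its reads come from transcripts that run past the end of Cebpb was not tested. Gm14321, 87049 bp from Cebpb, had a log2 fold change of 0.94 ± 0.66 with overlapping groups (adjusted p 0.702), which ran from 0.49 without control replicate 2 to 2.02 without control replicate 3. The next gene, 9230111E07Rik, 91635 bp away, was not tested, with 6, 8 and 8 counts in Igf2 cKO and 10, 3 and 14 counts in control libraries. Near Nfil3, also called (1.38 ± 0.20, adjusted p 0.0459), Gm33424 had 7, 4 and 3 counts in Igf2 cKO and 1, 0 and 2 counts in control libraries at a gap of 35129 bp, too few to test. Near Glul (0.88 ± 0.12, adjusted p 0.0318), Gm28286 had 5, 3 and 15 counts in Igf2 cKO and 7, 1 and 5 counts in control libraries.

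**Figure D5:**
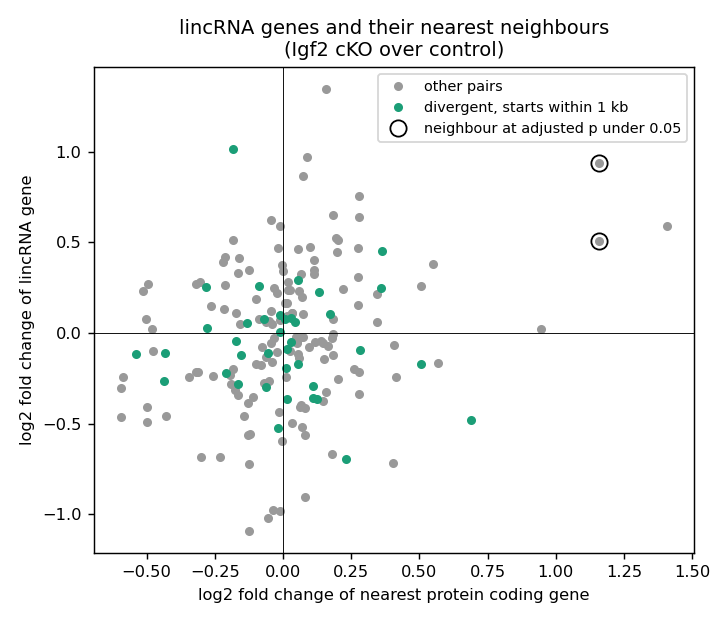
Log2 fold change (Igf2 cKO over control) of each tested lincRNA gene against that of its nearest protein coding gene, 184 pairs, with divergent pairs whose starts lie within 1000 bp in green and pairs whose neighbour was called circled. The points scatter around 0 on both axes, and the 2 circled pairs, both with Cebpb, lie at 0.51 and 0.94 for the lincRNA gene.

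Among the 38 genes too low to be tested, Gm48199 and Gm33424 had all Igf2 cKO values above control, and 4 genes had all of them below control. Over the tested genes the backgrounds are 7.83% above and 7.67% below, so these 6 of 38 are a share near the background. The 4 were Mir142hg, 2700012I20Rik, Gm46515 and Gm48616, and apart from Mir142hg all 6 were named after their values were seen. For 2700012I20Rik the counts were 5, 4 and 3 in Igf2 cKO and 12, 17 and 6 in control libraries. For Gm48616 they were 4, 4 and 3 in Igf2 cKO and 6, 5 and 6 in control libraries, a difference of a few reads.

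Promoters were compared with all promoters of the RefSeq table (250 bases before to 50 after the start, GRCm38.p6), and 115 of the 257 lincRNA genes had one within 1000 bp of their listed start. Both strands were searched for fixed letters. TATAAA occurred in 11.3% of the lincRNA promoters and 13.6% of all 32851, the E-box CAGCTG in 16.5% and 16.3%, and GATAAG in 1.74% and 7.44%. The full palindrome of the glucocorticoid response element was in 0 of the lincRNA promoters and in 3 of all promoters. An exact MEF2 box was in 0 of them and in 0.164% of all. Median GC content was 54.7% in the lincRNA promoters and 52.7% in all promoters. A match of letters is a description and not a site of binding.

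Markers of other cells in muscle were summed per library, and 0 genes of any of these lists were called by edgeR (background 0.249%) or limma-voom (background 0.229%). DESeq2 called 3 of the 5 erythroid markers and 1 of the 5 smooth muscle markers (background 1.38%). In edgeR the smooth muscle markers Acta2 (0.80 ± 0.14, adjusted p 0.0956) and Myh11 (0.34 ± 0.11, adjusted p 0.348) were higher at an unadjusted p under 0.05. Rgs5, Cspg4 and Tagln had log2 fold changes of -0.03, -0.08 and -0.09. The 5 erythroid markers were 322, 358 and 312 CPM in Igf2 cKO libraries and 617, 463 and 449 CPM in control libraries. All 5 were lower at an unadjusted p under 0.05 in edgeR (background 4.82%). Adipocyte markers summed to 476, 548 and 1004 CPM in Igf2 cKO and 576, 611 and 440 CPM in control libraries, with 1 of 6, Pck1, higher at an unadjusted p under 0.05 (background 5.11%). Endothelial, smooth muscle, fibroblast, Schwann cell and satellite cell sums overlapped between the groups, with 0 to 2 genes per direction in a list at an unadjusted p under 0.05 (background 5.11% higher and 4.82% lower). Their part in the levels of the lincRNA genes was not tested. AW112010, an RNA of immune cells that is translated in mouse macrophages, had 13.9, 23.7 and 18.1 CPM in Igf2 cKO muscle and 18.5, 17.1 and 19.1 CPM in control muscle. The groups overlapped, and edgeR's log2 difference was 0.02 ± 0.18 (SE), at an adjusted p of 0.981.

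The authors' deposited table also compares 1 Igf2 cKO library with the control library of the same number. In it, Gm49207 passed an adjusted p under 0.05 in the first comparison, with the authors' log2 fold change of 7.28 and adjusted p of 0.0158 (background 0.448% of the genes in that comparison). Its counts were 19, 3 and 0 in Igf2 cKO and 0, 6 and 7 in control libraries, so the other pairs go the opposite way, and it was too low to be tested here. In the second comparison of the authors' deposited table, 2310016D03Rik passed with a log2 fold change of 1.98 and an adjusted p of 0.0368 (background 0.346%). Over all libraries it had 30, 104 and 40 counts in Igf2 cKO and 50, 29 and 67 counts in control libraries, and edgeR gave a log2 fold change of 0.27 with an adjusted p of 0.919. In the authors' deposited table, the third comparison had no lincRNA gene of the set that passed (background 0.716%). Outside the set, E230001N04Rik, a lincRNA gene at a mean of 0.670 FPKM that the rule leaves out by name, was called by edgeR with a log2 fold change of 2.26 ± 0.30 and an adjusted p of 0.0274. It had 2.90, 3.58 and 2.48 CPM in Igf2 cKO muscle and 0.649, 0.559 and 0.653 CPM in control muscle.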

How the data were processed

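RNA from muscle of 3 Igf2 cKO and 3 control mice was isolated with Trizol and sequenced on an Illumina NovaSeq by a commercial service, per the labels' protocols. Aligner, counter, strand setting and genome build were not given in the sources used here. The single table has raw counts and FPKM per gene and library, per the file headers. It also has the authors' log2 fold changes with p-values and adjusted p-values for 3 comparisons of 1 library with 1. Another 6 columns of per-sample values were not used. Coordinates are as in the table and match GRCm38.

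Biotype, mean FPKM as deposited and the names left out chose the genes. Deposited counts of all genes were tested with edgeR 4.0.16 in R 4.3.3 (quasi-likelihood F test, TMM factors, filterByExpr, genotype as the single term, Benjamini-Hochberg adjustment over 14867 genes). The fit was also run on negative binomial counts simulated with its own fitted dispersions. Such counts cannot test whether that model suits these data. Calls were made at an adjusted p under 0.05. CPM are counts scaled by TMM library sizes. The SE follows from the F statistic. Read totals of 16184371 to 17905203 counts per library set the precision.

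The lincRNA genes, gene lists, tests and alternatives were chosen with earlier results of these data known, and E230001N04Rik was left out of the set with its call known. Named genes are the 5 with the smallest p per direction, the 12 with the highest FPKM and the members of role lists, with others said to be chosen after their values were seen. Hosts of microRNAs other than Mir17hg and Mir142hg, Dubr, and the genes of the deposited comparisons were likewise named after their values were seen. RefSeq supplied names, microRNAs and promoters, and GENCODE M21 the exons. Alternatives were other size factors, low-count filters, DESeq2 1.42.0, limma-voom (limma 3.58.1), a replicate block, other thresholds, and leaving out each library.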

Additional observations from a re-analysis of the deposited data

How the results depend on the processing

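No lincRNA gene of the set was called under any other fit run (size factors, filters, library sizes without mitochondrial DNA genes, DESeq2, limma-voom, a replicate block, a library left out, an adjusted p under 0.1, or a set cut at 0.25 or 1 FPKM). The exception is the rule stated for the series, which is not adjusted and took 4. The count of all genes called moved from 37 to 282 with no filter on low counts, 203 with DESeq2, 62 at an adjusted p under 0.1 and 235 with the series rule, and lay between 8 and 68 with a library left out, the extremes being control replicate 1 and Igf2 cKO replicate 2 (39 without Igf2 cKO 1, 17 without Igf2 cKO 3, 15 without control 2 and 13 without control 3). The lincRNA genes at an unadjusted p under 0.05, a count added after seeing the data, numbered 12 to 25, with 12 to 19 when a library was left out. The median of the lincRNA genes' log2 fold changes ran from -0.06 to -0.003. The lowest adjusted p of a named gene was 0.0504, for E130102H24Rik with no filter on low counts. Over all alternatives its adjusted p reached 0.387, and its log2 fold change stayed between -1.17 and -0.97. The share of counts was 0.251% in Igf2 cKO and 0.255% in control muscle without Neat1, and 0.358% in Igf2 cKO and 0.346% in control muscle over totals without mitochondrial DNA genes.

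Of 585 alternative values for 42 named genes, none passed the threshold. With no library left out, 3 changed sign, all near 0: AW112010 to -0.014 with limma-voom and -0.0037 with the replicate block, and 6720427I07Rik to -0.0034 with upper-quartile factors. With a library left out, 15 genes changed sign in 22 fits, and the cause was not tested. Their log2 fold changes then ran from -0.041 to 0.12 for 2310040G24Rik, -0.10 to 0.10 for 2310065F04Rik, -0.032 to 0.14 for 2900076A07Rik, -0.10 to 0.0028 for 2900097C17Rik, -0.44 to 0.046 for 4933404O12Rik, -0.15 to 0.16 for 6720427I07Rik, -0.19 to 0.20 for AW112010, -0.028 to 0.24 for Dubr and -0.090 to 0.40 for Gm27028. They ran from -0.39 to 0.17 for Gm28653, -0.54 to 0.98 for Gm5532, -0.46 to 0.41 for Hotair, -0.41 to 0.12 for Malat1, -0.96 to 0.046 for Snhg10 and -0.11 to 0.26 for Snhg18.

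The labels do not say whether replicate numbers pair the samples. Deviations from the group means correlated at 0.163, 0.058 and -0.043 between libraries of the same number, and at -0.183 to 0.122 between different numbers. With group means of 3 libraries these values cannot decide whether samples were paired. With the number as a block, 35 genes were called, 0 of the lincRNA genes were called, and 18 of them were at an unadjusted p under 0.05, with a median log2 fold change of -0.05. Depth limits the set, since 38 of the 257 genes were too low to be tested.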
